A study of Mus musculus with 4 samples.

Results

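MYC is a transcription factor that pairs with MAX to bind E-box DNA and is known for driving cell growth, in large part through genes that build ribosomes. Ribosomes are made in the nucleolus, where RNA polymerase I transcribes ribosomal RNA, small nucleolar ribonucleoproteins (snoRNPs) modify it, and assembly factors shape the small and large subunits. In T cells this programme is raised on activation, and mTORC1 and MYC are among its known regulators. The 40 genes described here were chosen by symbol from a fixed list of the MYC network, RNA polymerase I, snoRNP and nucleolar assembly genes, and all 40 were found among the 28334 rows of the deposited table. All 40 also passed the filter on low values that left 13685 genes for testing.

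The values came from poly-A RNA-seq of regulatory T cells (Treg) of C57BL/6 mice, sorted as CD4+ YFP+ cells from spleen and peripheral lymph nodes without treatment. The WT group had the genotype Foxp3 YFP-Cre/0 Pdpk1 +/+ (2 libraries, WT 1 and WT 2), and the KO group Foxp3 YFP-Cre/0 Pdpk1 FL/FL (2 libraries, KO 1 and KO 2). Pdpk1 encodes PDK1, the kinase that activates AKT and other AGC kinases. Both groups carried the hemizygous Foxp3 allele, which drives Cre and YFP in cells that express Foxp3, and the labels give no age and do not say whether animals were pooled. Values are on the log2 scale throughout, and reads per library were not given, so the depth is unknown.

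The libraries carried the defining transcripts of Treg. The 7 Treg markers lay between 10.41 and 13.26 on the log2 scale in every library. Il2ra (log2 fold change 0.225), Ctla4 (0.245) and Tnfrsf18 (0.155) were called higher in KO and Ikzf2 (-0.095) lower, and 3 did not pass. The summed level of the 7 was 14.91 and 14.93 in WT and 15.01 and 15.02 in KO. Summed markers of other cells were lower, at 8.49 to 8.65 in WT and 8.32 to 8.34 in KO for 6 B cell genes, and at 7.75 to 8.22 and 7.88 to 7.93 for 6 myeloid genes. The platelet genes Pf4 and Ppbp were at or under -1.09 in every library. Some markers of other cells differed with genotype, and their part in the results was not tested. Cd79a of the B cell genes (-0.62) and Klrb1c of the NK cell genes (-1.05) were called lower in KO. The other tested genes of both lists did not pass. Summed markers of 5 plasma cell genes were at 10.99 to 11.04 in WT and 11.33 to 11.42 in KO. Most of that sum was Xbp1 (log2 fold change 0.36), with Derl3 also higher (0.92) and Sdc1 lower (-0.61). The sums were at 6.99 to 7.29 and 6.36 to 6.52 for 5 dendritic cell genes, and at 5.28 to 5.40 and 4.988 to 5.003 for 4 platelet genes. Among stroma genes Col1a1 (-0.74) and Col1a2 (-1.54) were lower, while Pecam1, which carried most of their sum, did not pass (0.03). Pdpk1 itself was at 11.71 and 11.76 in WT and at 11.78 and 11.73 in KO, with overlapping groups (log2 fold change 0.02, SE 0.03, adjusted p = 0.612). A value summed over a gene keeps reads of the exons that remain, so it does not check the deletion, and WT and KO stand here for what the labels say. Proliferation genes moved with genotype. Their library medians over 40 genes ran from 9.42 to 9.52 in WT and from 9.995 to 10.14 in KO, 39 of the 40 were called higher in KO, and their part in the results on ribosome biogenesis was not tested. In bulk RNA, fewer cells of a type and less RNA per cell cannot be told apart.

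Transcripts of ribosome biogenesis were slightly but broadly higher in KO Treg. Of the 40 genes, 28 were called higher in KO and 0 lower (limma, Benjamini-Hochberg adjusted p under 0.05 over all tested genes), while 12 did not pass the test. Among all tested genes, 27.1% were called higher and 20.3% lower, or 47.4% in either direction. The differences were small, with a median log2 fold change of 0.13 over the 40 genes against 0.015 over all tested genes. Regardless of sign, the median size was 0.13 over the 40 genes and 0.14 over all tested genes. The 40 genes thus shared a direction but did not move further than tested genes in general. Only 19 of the 40 reached a fold of 1.1, and only Wdr12, Mxi1 and Myc reached 1.2. In 36 of the 40 genes both KO libraries lay above both WT libraries, as they did for 39.9% of all tested genes. In 0 of the 40 did both KO libraries lie below both WT libraries, against 33.1% of all tested genes, and in Polr1a, Nop14, Utp20 and Noc3l the groups overlapped. Together the 40 genes held 0.535% and 0.537% of the summed linear values in WT and 0.575% and 0.577% in KO.

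These calls rested on very small spreads. In every one of the 40 genes the sum of WT 1 and KO 1 lay within 0.05 of the sum of WT 2 and KO 2. The difference between WT 1 and WT 2 was opposite in sign to that between KO 1 and KO 2 in 28 genes, had the same sign in 7, and was 0 in either group in 5 (Pearson r -0.84 across the 40 genes, -0.91 across all tested genes). The sources used here do not say whether an adjustment for replicate number preceded deposit, in which case SEs and p-values of this fit would be too small. With the replicate number as a term, limma called 0 of the 40 genes, with 25 at an unadjusted p under 0.05 and 13 at an adjusted p under 0.1 (all higher, against 9.96% of all tested genes called higher at that limit). Leaving out any 1 of the 4 libraries, WT 1, WT 2, KO 1 or KO 2, left 0 called genes in the whole table (smallest adjusted p 0.0817 to 0.0961), with the lone library assumed to vary like the other group and with 23 to 29 of the 40 at an unadjusted p under 0.05, while the median of the 40 stayed between 0.13 and 0.15.

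**Figure D1:**
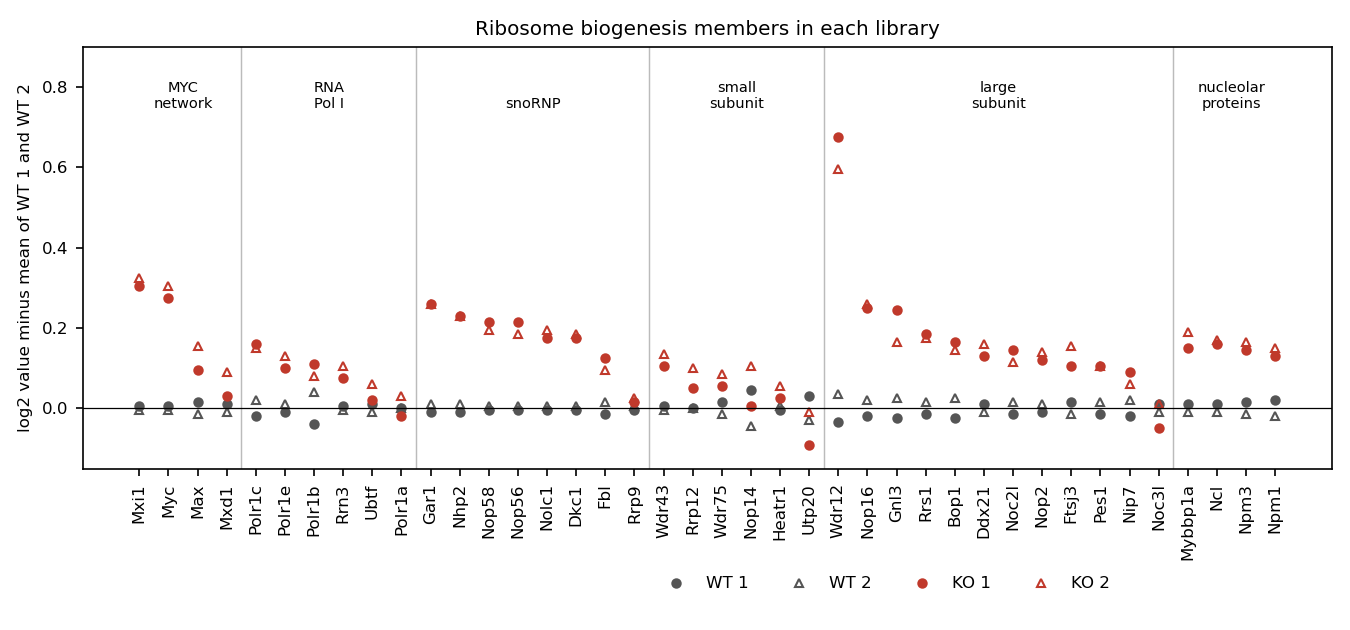
Each point is the log2 value of a gene in a library minus the mean of WT 1 and WT 2 (grey, WT; red, KO; circles, replicate 1; triangles, replicate 2), with genes grouped by role. Red points lie above grey ones in 36 of the 40 genes, and Wdr12 stands apart from the rest.

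The E-box CACGTG, which reads the same on both strands and is bound by MYC and MAX, was searched in RefSeq promoters (GRCm38.p6, 250 bases before to 50 after each start site), which were matched for 34 of the 40 genes. It was found in promoters of 7 genes, Nop2, Utp20, Pes1, Mybbp1a, Max, Rrn3 and Wdr43, or 15.9% of the 44 promoters of these 34 genes. The share was 9.83% of the promoters of tested genes and 7.15% of all 32851 promoters. The letters did not mark the larger differences. Of the 7 genes with the E-box 6 were called higher with a median of 0.12, and of the 27 matched genes without it 17 were, with a median of 0.15. The sequences upstream of 3 start sites are shown 5′ to 3′ on the gene's strand with the E-box in capitals. Rrn3 is shown as the member whose promoter window holds the motif at 2 places, Nop2 as one with a central E-box upstream of the start site, and Gar1 as the one with the largest fold change of the 8 snoRNP members, which has no E-box in its window. They are Rrn3 (chr16:13780459-13780698, plus strand), Nop2 (chr6:125131763-125131882, plus strand) and Gar1 (chr3:129831397-129831516, minus strand).
Rrn3: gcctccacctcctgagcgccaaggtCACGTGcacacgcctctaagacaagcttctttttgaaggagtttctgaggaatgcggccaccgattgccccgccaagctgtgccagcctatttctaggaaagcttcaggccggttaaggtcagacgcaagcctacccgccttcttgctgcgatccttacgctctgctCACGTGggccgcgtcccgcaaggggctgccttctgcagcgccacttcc
Nop2: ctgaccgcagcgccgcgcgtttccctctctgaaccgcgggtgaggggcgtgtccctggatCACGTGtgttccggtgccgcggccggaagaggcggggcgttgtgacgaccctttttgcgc
Gar1: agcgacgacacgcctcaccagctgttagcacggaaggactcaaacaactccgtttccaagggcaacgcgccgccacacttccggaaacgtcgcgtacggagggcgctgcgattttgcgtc
Counted from the start site, the first base of the E-box is at -215 and -48 in Rrn3 and at -60 in Nop2. A match is only a match of letters in this window and does not show binding.

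Myc was higher in KO. Its log2 value was 11.08 and 11.07 in WT and 11.35 and 11.38 in KO, so the groups did not overlap. The log2 fold change was 0.29 (SE 0.02, fold 1.22, adjusted p = 0.00573), above 89.5% of all tested genes. Myc lies on chromosome 15 (61985391 to 61990374, plus strand, GRCm38). Its partner gene Max was at 10.62 and 10.59 in WT and 10.70 and 10.76 in KO, a smaller rise (0.13, SE 0.03, adjusted p = 0.0352). The call of Max was lost without the filter, under quantile normalization, median centring and a variance prior without trend (limma, adjusted p = 0.0589 to 0.0796).

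The antagonists that compete with MYC for MAX did not share a direction. Mxi1 (chromosome 19, 53310518 to 53375810, plus strand), which encodes a repressor partner of MAX, was at 9.99 and 9.98 in WT and 10.29 and 10.31 in KO. Its interval overlapped that of Myc (log2 fold change 0.32, 95% interval 0.27 to 0.36, against 0.24 to 0.34 for Myc). Mxd1, another repressor partner, was at 11.40 and 11.38 in WT and 11.42 and 11.48 in KO and did not pass the test (0.06, adjusted p = 0.148). Among other genes of the network, 12 were tested, with a median of -0.02. Of these, 2 (16.7%) were called higher and 3 (25%) lower, beside 27.1% and 20.3% of all tested genes. The calls named next are therefore single genes and not a shift of the network. Mxd4 fell, from 11.60 and 11.62 in WT to 11.23 in both KO libraries (-0.38, SE 0.01, adjusted p = 0.00434), and Mxd3 rose, from 7.62 and 7.74 to 8.47 and 8.33 (0.72, SE 0.07, adjusted p = 0.00855). Both encode MAX-binding repressors, and Mxd3 is known for its expression in dividing cells. Fbxw7, the ubiquitin ligase subunit that targets MYC protein, was 1.14-fold higher (adjusted p = 0.00681). Huwe1, a ubiquitin ligase, and Trrap, a cofactor recruited by MYC, were lower at folds of 0.874 and 0.904. After the correction for length and mean value described with coding length, 2 of the 12 genes were called higher and 1 lower. The lower calls of Mxd4, Huwe1 and Trrap therefore did not all hold. Mnt, a further repressor partner, had a mean of 10.56 in both groups.

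Of 6 members of the RNA polymerase I group, 3 were called higher, with a median of 0.09. After the correction for length and mean value described with coding length, 0 of the 6 were called, and Rrn3 and Polr1e also lost their calls under quantile normalization and median centring (adjusted p = 0.0540 to 0.0753). Polr1a, the largest catalytic subunit (chromosome 6, 71909053 to 71984935, plus strand), was at 10.72 and 10.72 in WT and 10.70 and 10.75 in KO, and the groups overlapped (log2 fold change 0.01, 95% interval -0.06 to 0.07). Polr1c, a subunit shared with RNA polymerase III, was at 9.58 and 9.62 in WT and 9.76 and 9.75 in KO (0.16, SE 0.02, adjusted p = 0.0134). Rrn3, which brings the polymerase to the ribosomal DNA promoter, was at 10.28 and 10.27 in WT and 10.35 and 10.38 in KO (0.09, SE 0.02, adjusted p = 0.0260). The polymerase subunit gene Polr1e rose by 0.12 (adjusted p = 0.0271). The groups of both genes were close but did not overlap. Polr1b, the other large catalytic subunit, and Ubtf, the factor that binds ribosomal DNA promoters, had log2 fold changes of 0.10 and 0.04 and did not pass (adjusted p = 0.104 and 0.193). Of 15 other genes of the polymerase and its promoter factors, 5 (33.3%) were called higher and 2 (13.3%) lower, shares near the 27.1% and 20.3% of all tested genes. Taf1a and Taf1c, which belong to the promoter selectivity factor SL1, were the lower ones, at folds of 0.871 and 0.933.

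Genes of snoRNP proteins were mostly higher in KO. Of 8 members, 7 were called higher, with a median of 0.19. In the box H/ACA particle, which converts uridine of ribosomal RNA to pseudouridine, the enzyme gene is Dkc1 (chromosome X, 75095854 to 75109777, plus strand). Dkc1 was at 10.41 and 10.42 in WT and 10.59 and 10.60 in KO (0.18, SE 0.01, adjusted p = 0.00642). Nhp2, which binds the guide RNA, was at 9.15 and 9.17 in WT and 9.39 in both KO libraries (0.23, SE 0.02, adjusted p = 0.00653). Gar1, which regulates the enzyme, was at 8.69 and 8.71 in WT and 8.96 in both KO libraries (0.26, SE 0.02, adjusted p = 0.00658). The fourth core protein gene, Nop10, was 1.08-fold higher (adjusted p = 0.0416), so all core genes of this particle were called higher.

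The box C/D particle, which adds methyl groups to ribose of ribosomal RNA, showed the same direction. Nop56, a core protein, was at 10.97 and 10.98 in WT and 11.19 and 11.16 in KO (0.20, SE 0.02, adjusted p = 0.00681). Its partner Nop58 was at 10.82 and 10.83 in WT and 11.04 and 11.02 in KO (0.21, SE 0.01, adjusted p = 0.00608). Fbl, the methyltransferase, was at 9.71 and 9.74 in WT and 9.85 and 9.82 in KO, a smaller difference with groups that did not overlap (0.11, SE 0.02, adjusted p = 0.0261). The fourth core gene, Snu13, was 1.09-fold higher (adjusted p = 0.0404). Nolc1, a chaperone of both particle classes, rose by 0.19 (SE 0.01, adjusted p = 0.00653). Rrp9, a protein of the U3 particle that acts in small subunit processing, stayed between 9.48 and 9.51 in all 4 libraries (0.02, 95% interval -0.03 to 0.07).

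Some assembly factors of the snoRNPs had larger fold changes than any snoRNP member. Of 13 other snoRNP genes, 7 (53.8%) were called higher and 0 lower, with a median of 0.12. Of all tested genes 27.1% were called higher. After the correction for length and mean value 5 of the 13 were higher and 0 lower, against 20.2% of genes higher. Rpap3, of the chaperone complex that builds box C/D particles, was at 9.36 and 9.38 in WT and 9.86 and 9.87 in KO (0.50, SE 0.02, fold 1.41, adjusted p = 0.00434). Naf1, an assembly factor of the H/ACA particle that Gar1 replaces, was at 8.88 and 8.91 in WT and 9.24 and 9.29 in KO (0.37, SE 0.03, adjusted p = 0.00642). Ruvbl1 and Ruvbl2, the ATPases that work with Rpap3, were 1.13-fold and 1.11-fold higher. Pih1d1, another subunit of that complex, was 1.06-fold higher and did not pass (adjusted p = 0.196).

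**Figure D2:**
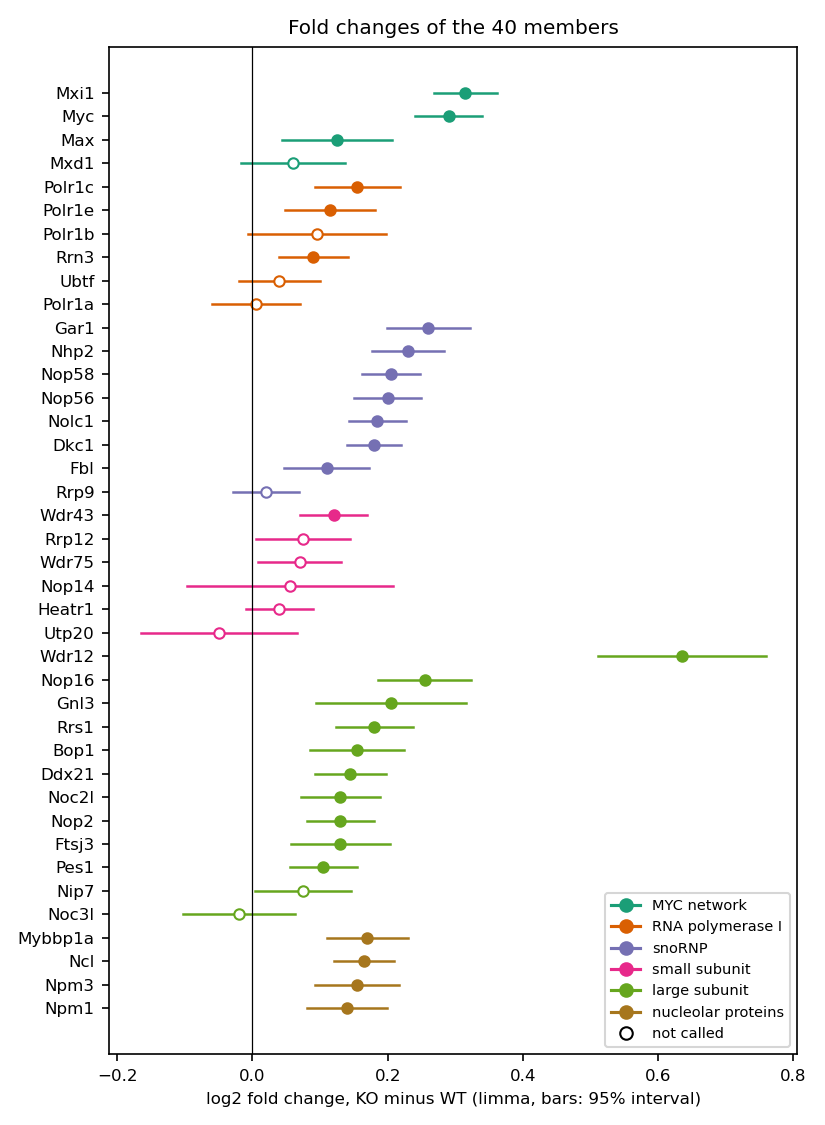
Log2 fold changes (KO minus WT) of the 40 genes with 95% intervals from limma, coloured by role, where open circles mark the 12 genes that were not called. Intervals of the snoRNP genes other than Rrp9 and of all 4 nucleolar protein genes exclude 0, and Wdr12 lies at 0.64.

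Genes of the small subunit processome, which folds and cuts the precursor of the small subunit, had the lowest median of the role groups. Of 6 members, 1 (16.7%) was called higher, a share below the 27.1% of all tested genes, with a median of 0.06. Wdr43, a processome protein (chromosome 17, 71615895 to 71659031, plus strand), was at 10.98 and 10.97 in WT and 11.08 and 11.11 in KO (0.12, SE 0.02, adjusted p = 0.0137). Utp20, a very large scaffold protein, was at 10.57 and 10.51 in WT and 10.45 and 10.53 in KO (-0.05, 95% interval -0.17 to 0.07). It was the lowest fold change of the 40, and its groups overlapped. Heatr1, Wdr75 and Rrp12 had log2 fold changes of 0.04, 0.07 and 0.08 with both KO libraries above both WT libraries, and Nop14 had 0.06 with overlapping groups (adjusted p = 0.0660 to 0.443 for these genes). In the wider list of 53 other small subunit genes, 27 (50.9%) were called higher and 2 (3.77%) lower, with a median of 0.08. After the correction for length and mean value 14 of them were higher and 3 lower, against 20.2% of genes higher. Nob1, the nuclease that makes the last cut of the small subunit RNA, was 1.15-fold higher (adjusted p = 0.00608), and Noc4l was 1.18-fold higher (adjusted p = 0.00701). Utp11 and Utp14b were lower, at folds of 0.920 and 0.798.

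Among genes of large subunit assembly, 10 of 12 were called higher and 0 lower, with a median of 0.14. The PeBoW complex, which joins Pes1, Bop1 and Wdr12 and is needed for processing of the large subunit RNA, rose unevenly. Pes1 was at 10.32 and 10.35 in WT and 10.44 in both KO libraries (0.11, SE 0.02, adjusted p = 0.0178). Bop1 was at 10.55 and 10.60 in WT and 10.74 and 10.72 in KO (0.16, SE 0.02, adjusted p = 0.0159). Wdr12 was at 9.21 and 9.28 in WT and 9.92 and 9.84 in KO, so its groups lay far apart (log2 fold change 0.64, 95% interval 0.51 to 0.76, fold 1.55, adjusted p = 0.00597). The intervals of its partners ended at 0.15 for Pes1 and 0.22 for Bop1, below the lower end for Wdr12, which lay above 96.4% of all tested genes.

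Wdr12 lies on the minus strand of chromosome 1 (60069785 to 60098645, GRCm38), where its neighbours were looked up after its value had been seen. Ica1l, the next protein-coding gene downstream of Wdr12 on the same strand, was at 5.84 and 5.92 in WT and 7.81 and 7.72 in KO (1.89, SE 0.06, fold 3.69, adjusted p = 0.00434). Carf, which starts on the opposite strand and overlaps the start of Wdr12, was at 7.62 and 7.67 in WT and 7.98 and 7.86 in KO (0.28, SE 0.06, adjusted p = 0.0293). Both genes beside Wdr12 therefore differed in the same direction. The genes beyond them were mixed. Fam117b rose by 0.20 and Raph1 by 0.59, Bmpr2 and Nbeal1 were lower at -0.22 each, and Cyp20a1 did not pass (0.15, adjusted p = 0.197). Whether counting used strand is not given in the sources used here, so reads of Wdr12 and Carf cannot be told apart where they overlap. An opposite-strand gene overlaps 17 of the 40 genes in the annotation.

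**Figure D3:**
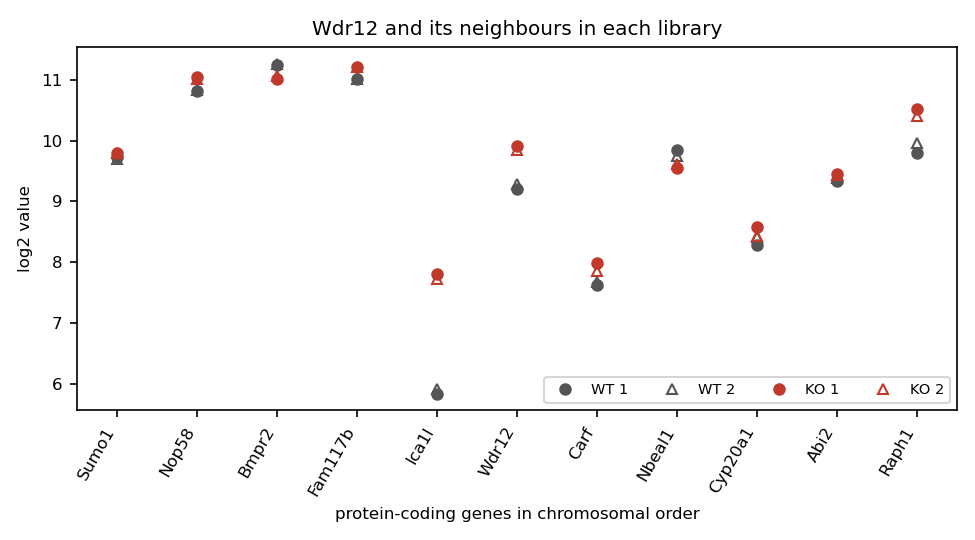
Log2 values of Wdr12 and 5 protein-coding genes on either side in chromosomal order in each library (grey, WT; red, KO; circles, replicate 1; triangles, replicate 2). Ica1l and Wdr12 show the widest gaps between WT and KO, and Bmpr2 and Nbeal1 lie lower in KO.

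The other large subunit genes had smaller fold changes, and Noc3l and Nip7 did not pass. Nop16, a nucleolar protein of the early large subunit, was at 8.97 and 9.01 in WT and 9.24 and 9.25 in KO (0.26, SE 0.02, adjusted p = 0.00758). Gnl3, which encodes the GTP-binding protein nucleostemin, was at 10.06 and 10.11 in WT and 10.33 and 10.25 in KO (0.21, SE 0.04, adjusted p = 0.0231). Ddx21, an RNA helicase that also binds RNA polymerase I and snoRNAs, was at 12.05 and 12.03 in WT and 12.17 and 12.20 in KO (0.15, SE 0.02, adjusted p = 0.0112). None of these overlapped between the groups. Rrs1, which helps to bring the 5S particle into the subunit, rose by 0.18, and the RNA methyltransferase genes Nop2 and Ftsj3 each rose by 0.13. Noc2l, whose yeast counterpart escorts large subunit precursors, rose by 0.13 (adjusted p = 0.0160). Its relative Noc3l was at 9.59 and 9.57 in WT and 9.53 and 9.59 in KO and did not pass (-0.02, adjusted p = 0.603). Nip7, a late factor, also did not pass (0.08, adjusted p = 0.0786). In the wider list, 61 other large subunit genes were tested, of which 38 (62.3%) were called higher and 4 (6.56%) lower. Their median was 0.10, and after the correction for length and mean value 15 were higher and 4 lower. Of all tested genes 27.1% were called higher and 20.3% lower, and 20.2% were higher under that correction. Nmd3, the export adaptor of the large subunit, was 1.14-fold higher (adjusted p = 0.00623). Mdn1, the giant ATPase that strips factors from the large subunit, was at 12.56 and 12.49 in WT and 12.03 and 12.07 in KO, the lowest of that list (-0.47, SE 0.03, adjusted p = 0.00601).

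The abundant nucleolar proteins moved by nearly the same amount. Ncl, which encodes nucleolin (chromosome 1, 86344719 to 86359400, minus strand), was at 12.74 and 12.72 in WT and 12.89 and 12.90 in KO (0.17, SE 0.01, adjusted p = 0.00745). Npm1, the histone and ribosomal protein chaperone nucleophosmin, was at 11.77 and 11.73 in WT and 11.88 and 11.90 in KO (0.14, SE 0.02, adjusted p = 0.0147). Npm3, of the same family, rose by 0.16 (adjusted p = 0.0131), and Mybbp1a, a nucleolar protein that binds MYB, by 0.17 (adjusted p = 0.0107). All 4 were called higher and their log2 fold changes ran from 0.14 to 0.17.

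Levels per kilobase of coding sequence spanned a wide range. In WT, Mxd1 and Npm1 were highest at a log2 level of 11.94 each, followed by Max (11.66) and Ncl (11.65). Utp20 (7.48), Rrp12 (7.70) and Polr1b (8.08) were lowest. Myc stood among the upper genes at 10.63 in WT and 10.92 in KO. On this scale Wdr12 was below its partners in WT, at 8.90 against 9.44 for Bop1 and 9.52 for Pes1, and close to them in KO, at 9.54 against 9.60 and 9.62. Coding length leaves out untranslated ends, which differ widely between genes, so these levels are approximate. Transcript and coding lengths were 4666 and 681 bases for Mxd1, 1395 and 876 for Npm1, 1934 and 480 for Max, and 8202 and 2121 for Ncl. They were 3251 and 1269 bases for Wdr12, 2491 and 2196 for Bop1, and 2911 and 1764 for Pes1. The ranks of Mxd1, Max and Ncl and the closeness of Wdr12 to its partners in KO therefore hold for coding length only, not for transcript length.

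Among the 40 genes, those with short coding sequences had higher fold changes. The 4 genes with at least 4 kb (Polr1a, Utp20, Heatr1 and Mybbp1a) had a median log2 fold change of 0.02, and the 10 genes under 1 kb one of 0.15. Across the 40 genes Spearman's rho of coding length with log2 fold change was -0.48, and Pearson's r with log2 length was -0.41, or -0.52 without Wdr12. Across 11766 tested coding genes, measured in the same libraries, rho was -0.15. When fold changes were corrected jointly for the length of the transcript and the mean value, 16 of the 40 were called higher and 0 lower, against 20.2% of genes higher, and the median went to 0.07. Myc (0.20), Mxi1 (0.25), Wdr12 (0.61), Nop58 (0.28) and Gar1 (0.19) were among those that passed, and Fbl (0.02) and Max (0.04) were among those that did not. Nop58 went up from 0.21, and its corrected value rests on a transcript length of 9507 bases, the longest of the 40, against 1608 coding bases.

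**Figure D4:**
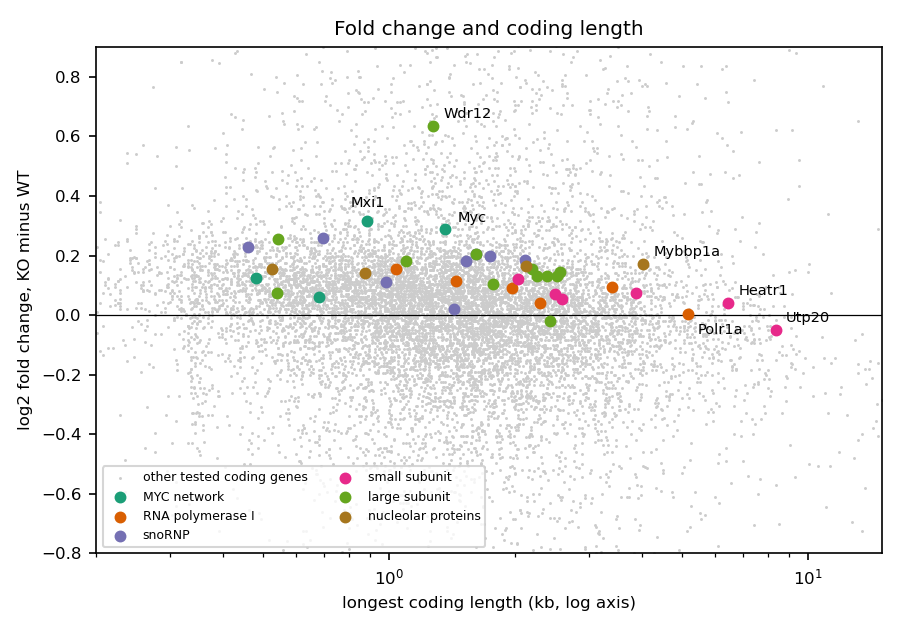
Log2 fold change (KO minus WT) against the longest coding length in kilobases on a log axis for the 40 genes, coloured by role, and for other tested coding genes in grey, with the vertical axis limited to show the members. The longest members Utp20, Heatr1 and Polr1a lie near 0, and Wdr12 lies far above members of similar length.

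Some members share features of gene structure that the choice of genes did not use. Genes of small nucleolar RNAs lie within Ncl, Nop56, Nop58, Dkc1, Gnl3 and Wdr43 in the annotation. All 6 of these host genes were called higher (median 0.19), and 22 of the 34 other genes were (median 0.13). No test of this difference was made, and poly-A libraries do not measure the small RNAs themselves.

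Related gene lists were set beside the 40 genes. Of 142 other ribosome biogenesis genes that were tested, 77 (54.2%) were called higher and 8 (5.63%) lower, with a median of 0.09. Among all tested genes 27.1% were called higher and 20.3% lower. After the correction for length and mean value 37 of the list were higher and 9 lower, against 20.2% of genes higher. Of 51 genes widely used as MYC targets with roles outside the nucleolus, 43 (84.3%) were called higher and 0 lower. Their median was 0.18, and after that correction 32 were higher and 2 lower. Ahcy, which clears S-adenosylhomocysteine, was at 9.60 and 9.64 in WT and 10.14 and 10.10 in KO (0.50, SE 0.03, adjusted p = 0.00545). Paics, of purine synthesis, was 1.19-fold higher (adjusted p = 0.00551), Cad, of pyrimidine synthesis, was 1.22-fold higher (adjusted p = 0.00573), and Ldha, lactate dehydrogenase A, was 1.14-fold higher (adjusted p = 0.00585). Tfrc, the transferrin receptor, had the highest fold of that list (1.43), whereas Odc1, a classic MYC target of polyamine synthesis, did not pass (0.05, adjusted p = 0.142).

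Among 79 genes of ribosomal proteins, 30 (38.0%) were called higher, beside 27.1% of all tested genes, and 1 lower, with a median of 0.07. After the correction for length and mean value the median fell to -0.001, and 8 were higher and 7 lower. Of all genes under that correction 20.2% were higher, a share that the ribosomal proteins did not reach. Rpl27 and Rps26 were 1.11-fold and 1.09-fold higher (adjusted p = 0.0150 and 0.0162). The lower gene, Rpl24, had an unusually low value for a ribosomal protein, at 5.57 and 5.55 in WT and 5.11 and 5.08 in KO, and ribosomal protein genes have processed copies that can share reads. Of 22 genes of RNA polymerase III and its factors, 7 (31.8%) were called higher and 2 lower, with a median of 0.04, a share near the 27.1% of all tested genes. The proliferation genes, which include cyclins and replication factors, had a median of 0.66, with Mki67 at 12.30 and 12.36 in WT and 12.88 and 12.82 in KO.

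**Figure D5:**
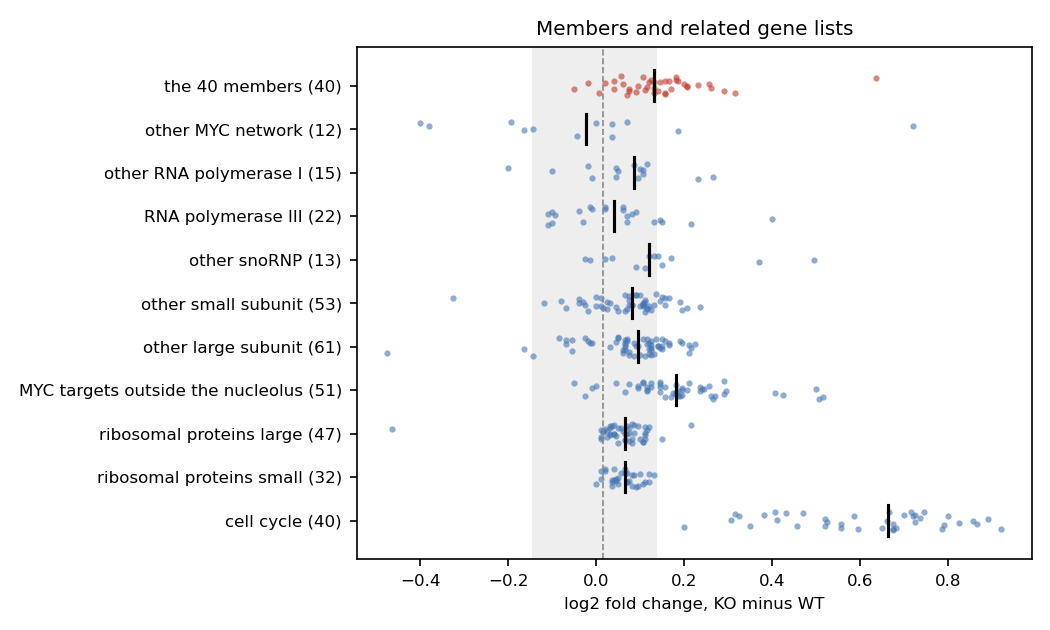
Log2 fold changes (KO minus WT) of the 40 genes (red) and of related lists (blue, number tested in brackets), with a black bar at each median, a grey band from the lower (-0.15) to the upper (0.14) quartile of all tested genes and a dashed line at their median. The 40 genes have a median of 0.13, MYC targets outside the nucleolus 0.18 and cell cycle genes 0.66.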

How the data were processed

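The table deposited by the authors holds log2 of normalised counts, per its name. STAR, DESeq2 and the build mm10 appear in the submitters' processing notes. How reads were counted, on which annotation and strand, and the exact transform are not given in the sources used here. Values at the low end are negative with nearly no spread, so fold changes of low genes may be understated. Values have 2 decimals, and depth is unknown, so no counting interval is given. The filter kept genes whose linear value (2 raised to the log2 value) reached 10 in at least 2 libraries. The test of KO against WT used limma 3.58.1 (R 4.3.3) with a mean-dependent variance prior, genotype alone and 2 residual degrees of freedom, two-sided, with Benjamini-Hochberg adjustment over 13685 genes and a call at an adjusted p under 0.05. The fit was tested on simulated data, with no result reported here. That run does not show that SEs or calls hold for the deposited values. In these values, replicate differences in WT and KO tended to be opposite in sign (Pearson r -0.91 across all tested genes). The labels do not state separate animals per library, and p-values therefore measure only the spread between these libraries. Symbols on more than 1 row, Itgam among the markers, were not placed in lists.

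Positions came from GENCODE M21 (GRCm38), promoters from RefSeq. Coding length is the longest annotated. The correction for length used the median length of transcripts paired with a RefSeq mRNA and a loess fit (span 0.4) on 13322 genes. Python 3.11.15 was used for summaries. Members and lists were chosen with earlier results of these data known. All 40 members may be named, and of other lists up to 4 called genes per direction with the smallest p. Nop10, Snu13, Pih1d1, Mnt, Mki67, Tfrc, Odc1 and the neighbours of Wdr12 were named outside that rule, after their values were seen. Noc2l was moved from the small to the large subunit group after its value was seen. As first grouped, 2 of 7 small subunit and 9 of 11 large subunit genes were called. Alternatives were the replicate block, quantile normalization, the length correction, median centring, an untrended prior, a minimum of 100 or no filter, an added pseudocount (10) and leaving out each library.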

Additional observations from a re-analysis of the deposited data

How the results depend on the processing

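The median of the members was above 0 under every planned setting, while the number of calls varied. Of the 40 members, 22 to 28 were called under quantile normalization, an untrended prior, median centring, either other filter (none or 100) and a pseudocount of 10, and 0 were lower in any of these. Same-numbered libraries correlated at -0.91 in their deviations, which does not show that the numbers pair them, and an adjustment for replicate number before deposit was not tested. With the replicate block 0 members, 0 other ribosome biogenesis genes, 0 MYC targets and 0 ribosomal proteins were called. At an adjusted p under 0.1, a limit chosen after seeing the data, 13 of 40 members were called. So were 12 of 142 other ribosome biogenesis genes (1 lower), 25 of 51 MYC targets and 0 of 79 ribosomal proteins. Of all tested genes 9.96% were called higher, a share that the other ribosome biogenesis genes and the ribosomal proteins did not reach. The crossed pairing, also chosen after seeing the data, called 31 (1 lower), 106 (12 lower), 43 and 27, beside 5282 genes higher and 4446 lower of all 13685. Leaving out 1 library gave 0 to 0 calls in each of these lists and in the whole table, so these fits say nothing particular about the lists. The length and mean correction called 16 members, all higher, and 46 of 141 other ribosome biogenesis genes (37 higher, 9 lower). It called 34 of 51 MYC targets (32 higher, 2 lower) and 15 of 79 ribosomal proteins (8 higher, 7 lower). Of all genes under that correction 20.2% were called higher, a share that the ribosomal proteins did not reach. Ribosomal protein calls went from 31 to 16 without trend, 17 unfiltered, 11 after median centring and 8 after quantile normalization. The median of the members moved from 0.13 to 0.0906 (quantile), 0.10 (centring) and 0.0731 (length). Signs turned only in members that were not called. Polr1a was -0.0362 under quantile normalization and -0.025 under centring, and from -0.02 to 0.03 when 1 library was left out. Ubtf was -0.0031 under quantile normalization and -0.0291 under the length correction. Rrp9 was -0.0175 (quantile), -0.01 (centring) and -0.057 (length). Utp20 was 0.0168 under the length correction, and Noc3l ran from -0.05 to 0.01 when 1 library was left out. The cause of these changes was not tested. Depth is unknown and limits every value.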
